A study of Mus musculus with 3 samples.

Results

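Heme synthesis enzymes are described here in liver RNA of mice given zinc oxide (ZnO) nanoparticles. The 8 genes Alas1, Alas2, Alad, Uros, Urod, Cpox, Ppox and Fech were taken by symbol from the 49492 entries of the count tables, and all 8 were among the 14585 genes with at least 1 CPM (counts scaled to library size) in at least 1 library. They are not the whole pathway. Total liver RNA of CD-1 mice, an outbred stock, was sequenced. Mice received a ZnO nanoparticle suspension by mouth, after 30 min of ultrasonic dispersion, at 25 mg/kg body weight daily for 12 weeks (1 library) or 8 weeks (1 library), and control mice received phosphate-buffered saline (PBS, 1 library). The study's title concerns insulin resistance brought about by the particles. The labels do not give the animals' sex or age, the number of mice behind a library, the hour of collection or when the control mice were killed.

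Heme is built from glycine and succinyl-CoA by a chain of enzymes that starts and ends in the mitochondrion and runs through the cytosol in between. The first step, made by 5-aminolevulinate synthase, sets the rate. Its housekeeping form, ALAS1, dominates in liver, is repressed by heme and is induced when cytochromes P450 are needed or in fasting, through the coactivator PGC-1alpha. The form ALAS2 serves hemoglobin synthesis in red cell precursors, where its translation depends on iron.

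Each group is 1 library, so there is no spread between animals to test against and no p-value. Deposited counts summed to 13263328 at 12 weeks, 14258915 at 8 weeks and 13615143 in the PBS control, and 3 counts correspond to 0.227, 0.209 and 0.221 CPM in these libraries. A change is the log2 ratio of CPM + 1, so changes of weakly expressed genes appear smaller than they are. Genes at or past 2-fold were called higher or lower, which goes by size alone. The interval after each ratio is the exact (Clopper-Pearson) 95% interval of the ratio of counts and covers counting error only. All 12 hepatocyte markers were kept, with a summed level of 69024 CPM at 12 weeks, 66222 CPM at 8 weeks and 54199 CPM in the PBS control. Alb alone made up 31169, 31793 and 21847 CPM of these sums. Of the 12 log2 ratios to PBS, 9 were positive and 3 negative at 8 weeks, and 10 and 2 at 12 weeks. Skeletal muscle markers had 18, 2700 and 26 counts in the same libraries, nearly all of them in the 8-week library. Markers of Kupffer cells and macrophages summed to 505 CPM at 12 weeks, 628 CPM at 8 weeks and 257 CPM in the PBS control. Slc40a1 alone made up 182, 211 and 155 CPM of these sums, with log2 ratios to PBS of 0.45 at 8 weeks and 0.23 at 12 weeks. Of 18 markers, 15 were called higher at 12 weeks (3.11% of all kept genes) and 16 at 8 weeks (4.15% of all kept genes). The part of these cells in the values below was not tested, and in bulk liver fewer cells of a type and less RNA per cell cannot be told apart.

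The enzymes of the pathway did not move together. Alas1 was called higher at 8 weeks and had 1.89 times the PBS level at 12 weeks, and Alas2 was called lower at 12 weeks. Cpox had 0.513 and 0.577 times the PBS level at 8 and 12 weeks, and Alad 0.568 times at 12 weeks, all short of 2-fold. Fech had log2 ratios of -0.04 and -0.09. Against the PBS control, Alas1 was the 1 member of 8 called higher at 8 weeks, where 4.15% of all kept genes were called higher, and no member was called lower, where 2.1% of all genes were. At 12 weeks no member was called higher (background 3.11%) and 1 of 8, Alas2, was called lower (background 1.34%). The median log2 ratio of the 8 members was -0.14 at 8 weeks, against -0.02 over all kept genes, and -0.34 at 12 weeks, against -0.01. In both comparisons 7 of 8 members had a negative ratio and Alas1 the positive one. Negative ratios were held by 51.6% and 51.0% of all kept genes at 8 and 12 weeks. Among kept genes with a mean of at least 10 CPM the shares were 54.5% and 54.7%. The counting intervals of Alas2, Alad, Ppox and Fech at 8 weeks and of Uros at 12 weeks included 0. Both comparisons use the same PBS library, so they are not independent of each other.

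**Figure D1:**
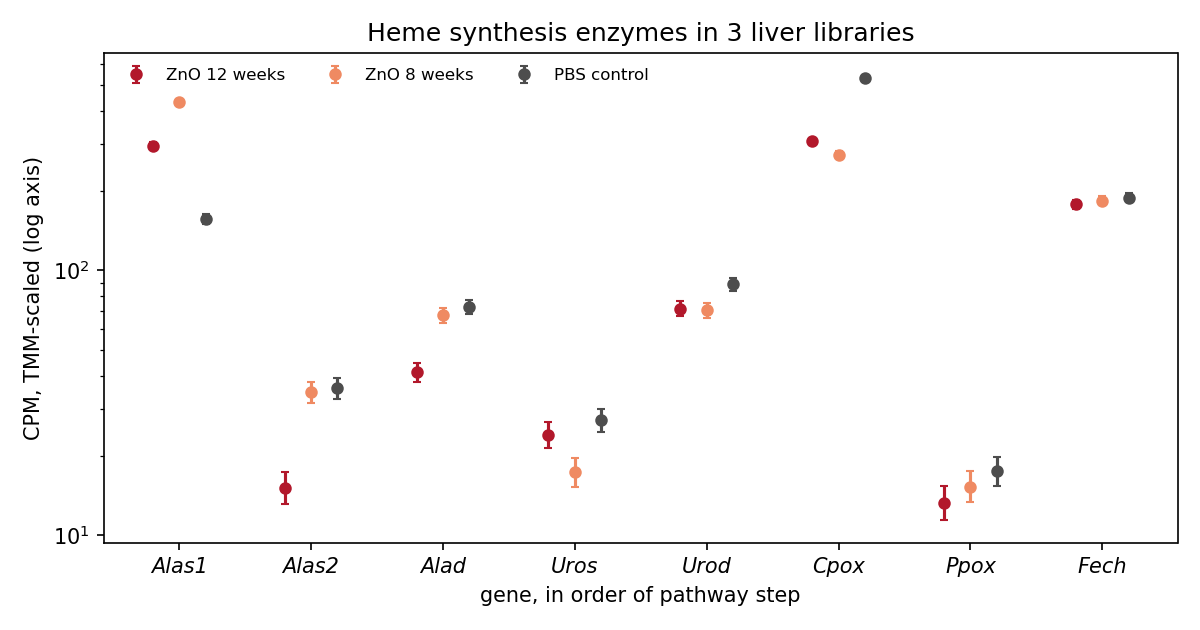
Level of each of the 8 enzymes (CPM, log axis) in the 12-week, 8-week and PBS libraries, in order of pathway step, with exact 95% counting intervals. Alas1 is highest at 8 weeks (431 CPM), Cpox is highest in the PBS control (533 CPM) and Alas2 is lowest at 12 weeks (15.1 CPM).

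Alas1 encodes the rate-limiting synthase of liver and lies on the minus strand at chr9:106233455-106248654 (mm10). It had 3921 counts (296 CPM) at 12 weeks and 6180 counts (431 CPM) at 8 weeks, against 2123 counts (156 CPM) in the PBS control. Both ZnO libraries stood above the control, and the 8-week library stood above the 12-week library. The log2 ratio to PBS was 1.46 at 8 weeks (interval 1.39 to 1.53), a 2.76-fold level that 269 of the 14585 kept genes reached or passed. At 12 weeks it was 0.92 (0.84 to 1.00), a 1.89-fold level just short of the 2-fold rule, reached or passed by 560 genes. Between 12 and 8 weeks the ratio was -0.54 (-0.60 to -0.48). The 1 entry that overlaps Alas1, 4930500F10Rik on the opposite strand, held 2 counts at 12 weeks and 0 in each of the others.

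The transcription factor NRF1, a regulator of nuclear genes for mitochondrial proteins, is known to act on the Alas1 promoter, and the matching stretch is shown for that reason. The letters GCGCATG, part of the known NRF1 site, stand here on both strands in overlapping copies, shown in capitals. The stretch lies at chr9:106247906-106247935 (minus strand). Its capitals start 195 bases before the downstream RefSeq start site of the gene and fall inside the first exon of the longest annotated Alas1 model.
Alas1 NRF1 site: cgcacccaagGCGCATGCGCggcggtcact
On either strand, GCGCATG occurs in the 250 bases before the start site in 3.24% of the 32851 RefSeq promoters (GRCm38.p6). Of the 10 promoter windows listed for 7 of the members, this one alone held it. The letters TGTTTAC, bound by FOXO factors, were in none of the 10 (3.17% of all promoters, either strand). The Nrf1 gene itself had 138 counts at 12 weeks, 128 at 8 weeks and 173 in the PBS control, with log2 ratios to PBS of -0.47 at 8 weeks and -0.27 at 12 weeks. Nrf1 was named after its values were seen. A match of letters is a description and not a measured binding site.

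Alas2 encodes the red cell form of the same enzyme and lies on the plus strand at chrX:150547375-150570638. It had 200 counts (15.1 CPM) at 12 weeks and 496 counts (34.6 CPM) at 8 weeks, against 487 counts (35.9 CPM) in the PBS control. The 12-week library was low and the other libraries lay close together. The log2 ratio to PBS was -1.20 at 12 weeks (interval -1.49 to -1.01), where 108 of 14585 genes were as low or lower, and -0.05 at 8 weeks (-0.24 to 0.13). Between 12 and 8 weeks it was -1.15 (-1.44 to -0.96), which made Alas2 the 1 of 8 members called lower, where 1.23% of all genes were. The interval reaches inside 2-fold, and with 5 CPM added in place of 1 the ratio was -0.98 and the call was lost. No member was called higher between these libraries (background 1.28%).

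Sequences around the Alas2 start are shown because they carry the elements by which this gene is known to be controlled. GATA1, the master regulator of red cell genes, binds the core AGATAA, which stands here on the minus strand, as TTATCT in capitals, 44 bases before the first exon of the files. The promoter stretch is chrX:150547167-150547374 (plus strand, RefSeq, GRCm38.p6). The iron-responsive element, bound by iron regulatory proteins when iron is scarce, lies in the first exon at chrX:150547458-150547485 (GENCODE M21). Its CAGTGN loop is in capitals, between stretches of 5 bases that pair with each other, G-T pairs allowed.
Alas2 promoter: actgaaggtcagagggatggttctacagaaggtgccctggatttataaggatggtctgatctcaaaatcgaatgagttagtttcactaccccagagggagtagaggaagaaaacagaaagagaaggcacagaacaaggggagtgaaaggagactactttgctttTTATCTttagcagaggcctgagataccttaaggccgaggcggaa
Alas2 iron-responsive element: ttggttcgtcctCAGTGCagggcaacag
On either strand, AGATAA occurs in the 250-base windows of 9.99% of all RefSeq promoters and, among those of the members, in that of Alas2 alone. Gata1 had 0 counts in every library.

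The level of Alas2 did not follow that of the adult globin genes. The 4 adult globin genes Hba-a1, Hba-a2, Hbb-bs and Hbb-bt summed to 118 CPM at 12 weeks and 119 CPM at 8 weeks, against 79.4 CPM in the PBS control. Hbb-bs, a beta globin, had 793 and 867 counts at 12 and 8 weeks, against 551 in the PBS control, and Hba-a1, an alpha globin, had 638 and 658, against 422. Globin paralogs share near-identical sequence, so the split between them is uncertain. The 15 other erythroid markers found in the files summed to 16.2 CPM at 12 weeks and 18.1 CPM at 8 weeks, against 10.8 CPM in the PBS control. Sptb alone made up 153, 172 and 92 of their 215, 259 and 146 counts at 12 weeks, 8 weeks and in PBS. In the same libraries Tal1 had 24, 28 and 28 counts, Klf1 21, 11 and 8, and Slc4a1 3, 9 and 6. Counts outside Sptb were too few and too mixed to compare with Alas2. Of the 19 markers found, 6 had 0 counts in each library, and Gata1, Epb42 and Tspo2 had 0 in all 3. Across the 8 kept markers 0 were called higher (background 3.11% at 12 weeks and 4.15% at 8 weeks) or lower (1.34% and 2.1%). Their median log2 ratio to PBS was 0.55 at 12 weeks and 0.56 at 8 weeks.

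Per 1000 counts of the whole erythroid marker list, Alas2 had 113 counts at 12 weeks (interval 96.7 to 130.3), 252 at 8 weeks (228 to 278) and 398 in the PBS control (358 to 443). The 3 intervals did not overlap, and the order was PBS control, 8 weeks and 12 weeks from high to low. Alas2 itself was close in the 8-week and PBS libraries, at 496 and 487 counts. The step between these libraries lies in the marker sum, which was 137 CPM at 8 weeks and 90.1 CPM in the PBS control. The exons of Alas2 share 311 of their 2403 bases with Apex2, a gene on the opposite strand, which had 87 counts at 12 weeks, 158 at 8 weeks and 158 in the PBS control. Mir3620, also on the opposite strand in the first exon, had 0, 6 and 6. Use of strand in the counting was not given in the sources used here, and which gene the reads of the shared bases came from was not tested.

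**Figure D2:**
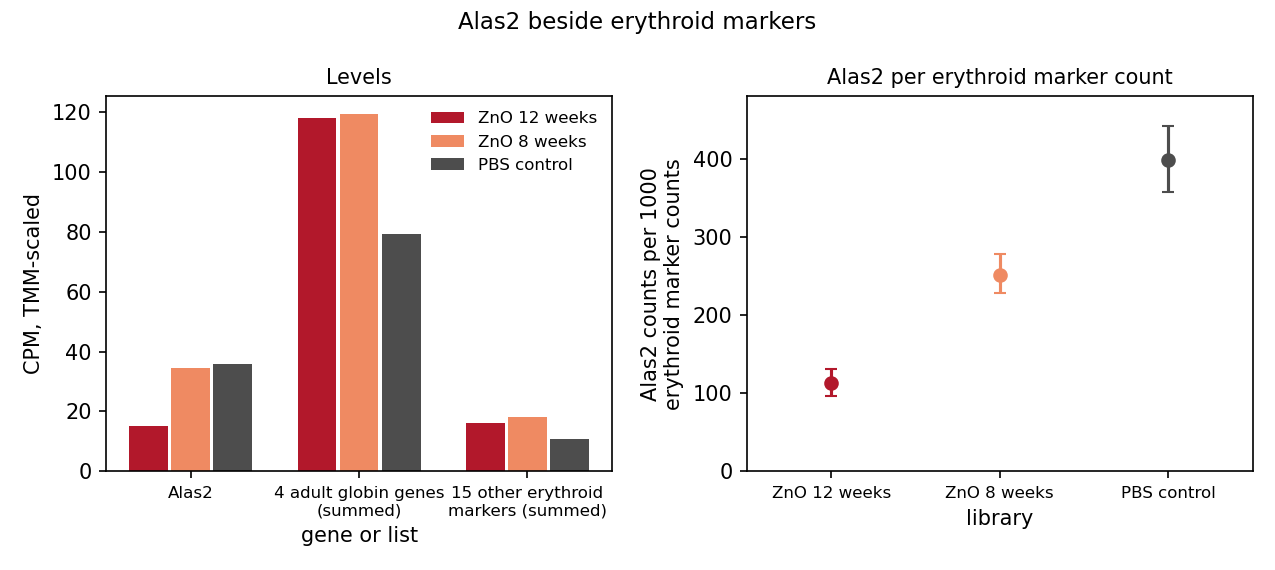
Left, CPM of Alas2, of the 4 adult globin genes summed and of 15 other erythroid markers summed in the 12-week, 8-week and PBS libraries. Right, Alas2 counts per 1000 counts of the 19 erythroid markers with exact 95% counting intervals: 113 at 12 weeks, 252 at 8 weeks and 398 in the PBS control.

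The cytosolic enzymes among the 8 act after these. Alad, which joins aminolevulinate units to porphobilinogen and needs zinc for activity, lies at chr4:62509169-62519918. It had 547 counts (41.3 CPM) at 12 weeks and 969 counts (67.6 CPM) at 8 weeks, against 987 counts (72.7 CPM) in the PBS control. As with Alas2, the 12-week library was the low one. The log2 ratio to PBS was -0.80 at 12 weeks (interval -0.97 to -0.66) and -0.10 at 8 weeks (-0.23 to 0.02), and that between 12 and 8 weeks was -0.70 (-0.87 to -0.56), none of them 2-fold.

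Uros, which closes the porphyrin ring, lies at chr7:133686243-133710072 and had 318 counts (24.0 CPM) at 12 weeks and 249 counts (17.4 CPM) at 8 weeks, against 369 counts (27.2 CPM) in the PBS control. Here the 8-week library was the low one. Its log2 ratio to PBS was -0.62 at 8 weeks (-0.88 to -0.41) and -0.17 at 12 weeks (-0.40 to 0.04), and the ratio between 12 and 8 weeks, 0.44 (0.22 to 0.71), was the highest of the 8 members. Urod, which removes carboxyl groups from the ring's side chains, lies at chr4:116989965-116994413 and had 950 counts (71.7 CPM) at 12 weeks and 1012 counts (70.6 CPM) at 8 weeks, against 1204 counts (88.7 CPM) in the PBS control. Both ZnO libraries were lower to a like degree, at log2 ratios of -0.33 at 8 weeks (-0.45 to -0.21) and -0.30 at 12 weeks (-0.43 to -0.18).

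The last enzymes act in the mitochondrion. Cpox, which oxidises coproporphyrinogen, lies at chr16:58670208-58680391 and was the member with the most counts in the PBS control. It had 4070 counts (307 CPM) at 12 weeks and 3914 counts (273 CPM) at 8 weeks, against 7229 counts (533 CPM) in the PBS control. Both ZnO libraries were low and differed little from each other. The log2 ratio to PBS was -0.96 at 8 weeks (interval -1.02 to -0.91), an interval that reaches past 2-fold, and -0.79 at 12 weeks (-0.85 to -0.74). As low or lower were 355 of the 14585 kept genes at 8 weeks and 391 at 12 weeks. Between 12 and 8 weeks its ratio was 0.17 (0.11 to 0.23).

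Ppox, which makes protoporphyrin, lies at chr1:171275990-171281186 and had 176 counts (13.3 CPM) at 12 weeks and 219 counts (15.3 CPM) at 8 weeks, against 237 counts (17.5 CPM) in the PBS control. Its log2 ratio to PBS was -0.37 at 12 weeks (-0.68 to -0.11) and -0.18 at 8 weeks (-0.46 to 0.08). The exons of Ppox share 791 of their 4515 bases with B4galt3, a galactosyltransferase gene on the opposite strand that had 120 counts at 12 weeks, 166 at 8 weeks and 198 in the PBS control, so the value of Ppox is uncertain. Fech, the ferrochelatase that inserts iron into protoporphyrin, lies at chr18:64456550-64489066 and had 2350 counts (177 CPM) at 12 weeks and 2626 counts (183 CPM) at 8 weeks, against 2557 counts (188 CPM) in the PBS control. The 3 libraries were close, with log2 ratios to PBS of -0.04 at 8 weeks (-0.12 to 0.04) and -0.09 at 12 weeks (-0.17 to -0.01).

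**Figure D3:**
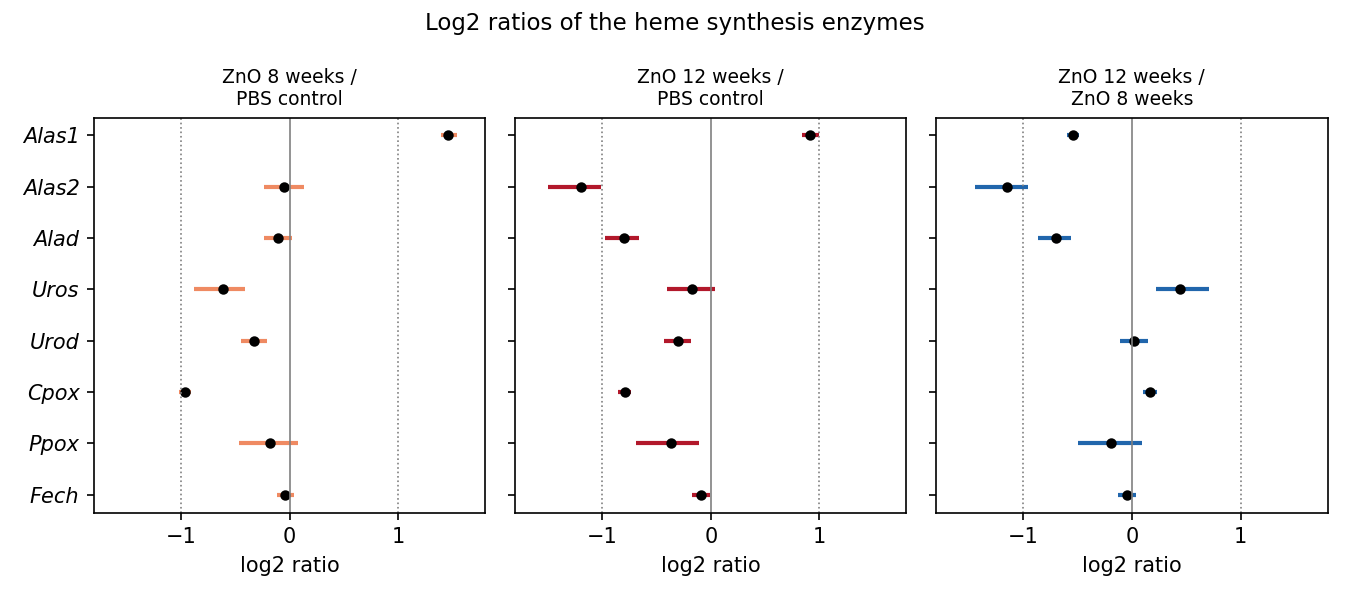
Log2 ratios of the 8 members (points) for 8 weeks over PBS, 12 weeks over PBS and 12 over 8 weeks, with exact 95% counting intervals of the count ratio (bars) and dotted lines at 2-fold. Past 2-fold stand Alas1 in the first panel (1.46) and Alas2 in both others (-1.20 and -1.15).

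Levels of different genes were compared per kilobase of the length that the files list, which counts every annotated exon. At 12 weeks Cpox led with 96.5 CPM per kb, followed by Fech with 61.2 and Alas1 with 57.7, whose intervals overlapped. At 8 weeks Cpox (85.7 CPM per kb) and Alas1 (84.0) led with overlapping intervals, ahead of Fech (63.2). In the PBS control Cpox had 167 CPM per kb, followed by Fech with 65.0, Alad with 38.9, Urod with 34.2 and Alas1 in the fifth place with 30.5. No neighbours in the PBS order overlapped in their counting intervals. Ppox had the lowest level in every library, at 2.94 CPM per kb at 12 weeks, 3.39 at 8 weeks and 3.87 in the PBS control. Uros (6.71 CPM per kb) and Alas2 (6.28) overlapped at 12 weeks, whereas Alas2 stood above Uros at 8 weeks (14.4 and 4.86) and in the PBS control (14.9 and 7.60).

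The balance between Alas1 and Cpox, Fech or Alas2 differed accordingly. The per-length level of Alas1 divided by that of Cpox was 0.598 at 12 weeks and 0.980 at 8 weeks, against 0.182 in the PBS control. Divided by that of Fech it was 0.943 at 12 weeks and 1.33 at 8 weeks, against 0.469 in the PBS control. Divided by that of Alas2 it was 9.17 at 12 weeks and 5.83 at 8 weeks, against 2.04 in the PBS control. The 7 members other than Alas1 summed to 650.2 CPM at 12 weeks and 662 CPM at 8 weeks, against 963 CPM in the PBS control. Cpox made up 307, 273 and 533 CPM of these sums, and Fech 177, 183 and 188 CPM. The 7 also include Alas2, a form of the first enzyme.

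Genes that move heme intermediates, build iron-sulfur clusters or act on the synthase protein were set beside the enzymes. Of 18 such genes 0 were higher and 1 was lower at 8 weeks (background 4.15% and 2.1%, median log2 ratio -0.11). At 12 weeks 0 were called higher or lower (background 3.11% and 1.34%, median -0.22). The lower gene was Clpx, a mitochondrial unfoldase known in yeast to help load ALAS with its cofactor and in human cells to take part in the breakdown of ALAS1. Clpx had 2688 counts (203 CPM) at 12 weeks and 1294 counts (90.3 CPM) at 8 weeks, against 5431 counts (400.3 CPM) in the PBS control. Its log2 ratio to PBS was -2.14 at 8 weeks and -0.98 at 12 weeks, and 1.16 between 12 and 8 weeks. The libraries stood in the reverse of the Alas1 order, lowest at 8 weeks and highest in the PBS control. Cpox, Uros, Urod, Hamp, Arntl, Npas2, Clock, Nrf1 and Nr1d1 were among other genes with this order. Nr1d1 was named after its values were seen, and not every step between libraries was clear of counting error. A link of Clpx to the Alas1 values was not tested. Pgrmc1, a heme-binding membrane protein and the most abundant gene of the list, had 0.02 at 8 weeks and -0.23 at 12 weeks. The glycine carrier Slc25a38 had -0.06 and -0.17, and the iron carriers mitoferrin 1 (Slc25a37) 0.27 and -0.21 and mitoferrin 2 (Slc25a28) -0.24 and 0.07 (8 and 12 weeks in each case, named after their values were seen).

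Of 20 known regulators of Alas1 in liver, 2 were higher and 3 lower at 8 weeks (background 4.15% and 2.1%, median -0.01). At 12 weeks 0 were higher and 3 lower (background 3.11% and 1.34%, median -0.16). Ppargc1a, which encodes PGC-1alpha, had 400 counts (30.2 CPM) at 12 weeks and 766 counts (53.5 CPM) at 8 weeks, against 209 counts (15.4 CPM) in the PBS control. Its log2 ratio to PBS was 1.73 at 8 weeks and 0.93 at 12 weeks, so its libraries stood in the same order as those of Alas1. Dbp, Tef and Nr1d2 of this list, named after their values were seen, had that order too. Nr1d1 of the list stood in the reverse order, with log2 ratios to PBS of -0.80 at 8 weeks and -0.26 at 12 weeks. A link of Ppargc1a to the Alas1 values was not tested. Skeletal muscle markers had 2700 counts at 8 weeks, against 18 at 12 weeks and 26 in the PBS control. The part of muscle RNA in the Ppargc1a values was not tested. Foxo1, an insulin-restrained factor that acts with PGC-1alpha, had 0.70 and 0.84 at 8 and 12 weeks, neither of them 2-fold, and was named after its values were seen. Nr1i3 and Nr1i2, the nuclear receptors CAR and PXR that induce Alas1 together with P450 genes, had -0.33 and 0.00 at 8 weeks and -0.65 and -0.04 at 12 weeks, also named after their values were seen. The abundant liver factors Hnf4a and Cebpa had 0.06 and -0.17 at 8 weeks and 0.48 and -0.17 at 12 weeks.

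Several regulators in the list belong to the circadian clock, which is known to drive Alas1 with a daily rhythm. Arntl, a core activator, had 70 counts at 12 weeks and 20 at 8 weeks, against 245 in the PBS control (log2 ratios to PBS of -2.99 at 8 weeks and -1.60 at 12 weeks). Its partner Npas2 had 7 and 2 counts at 12 and 8 weeks, against 26 in the PBS control. Clock (-1.18 at 8 weeks) and the output factor Dbp (1.26 at 8 weeks) were also called at 8 weeks and had -0.67 and 0.82 at 12 weeks, both named after their values were seen. Egr1, an immediate early factor, had -0.98 at 8 weeks and -2.33 at 12 weeks, and Nr0b2, a nuclear receptor that represses others (named after its values were seen), had -0.81 and -1.06. The E-box CACGTG, which these clock activators bind, was in promoter windows of Alad, Urod and Uros and not in those of Alas1 (6.02% of all promoters). The hour of collection is not given in the labels, and its part in the Alas1 values was not tested.

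**Figure D4:**
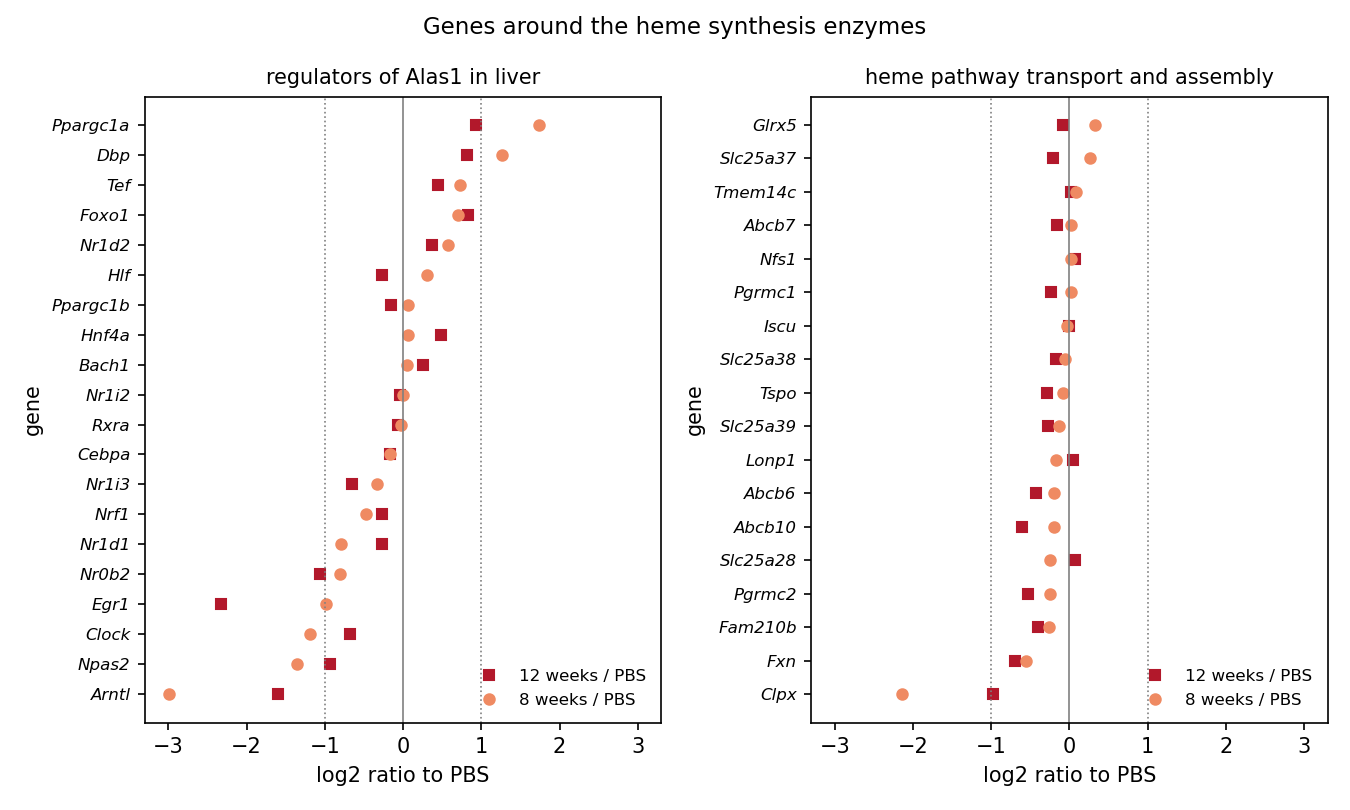
Log2 ratio to PBS at 12 weeks (squares) and 8 weeks (circles) for 20 regulators of Alas1 and 18 genes of heme pathway transport and assembly, with dotted lines at 2-fold. Ppargc1a stands highest among the regulators (1.73 at 8 weeks), Arntl lowest (-2.99 at 8 weeks), and Clpx is the transport and assembly gene past 2-fold (-2.14 at 8 weeks).

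Iron, the other substrate of ferrochelatase, also controls the Alas2 message. Of 13 genes of iron regulation and supply, 0 were higher and 1 lower at 8 weeks (background 4.15% and 2.1%, median -0.12). At 12 weeks 0 were called higher or lower (background 3.11% and 1.34%, median -0.18). The lower gene was Hamp, the iron hormone hepcidin, with 5233 counts (395 CPM) at 12 weeks and 2644 counts (185 CPM) at 8 weeks, against 8042 counts (593 CPM) in the PBS control. Its log2 ratio to PBS was -1.68 at 8 weeks and -0.58 at 12 weeks. The iron regulatory proteins Aco1 and Ireb2, which bind the element shown above, had 0.31 and -0.16 at 8 weeks and -0.06 and 0.27 at 12 weeks. Tfrc, the transferrin receptor whose message they stabilise, had -0.18 at 8 weeks and -0.64 at 12 weeks. These 3 genes were named after their values were seen. Trf, transferrin, and Fth1, ferritin heavy chain, had 0.42 and 0.18 at 8 weeks and 0.46 and -0.10 at 12 weeks.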

How the data were processed

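The authors deposited 1 table per library of estimated counts by gene, per the file headers. No normalization was seen in the values. Of the values above 0, 71.5% at 12 weeks, 70.2% at 8 weeks and 70.4% in the PBS control were whole within 0.005. Cufflinks 2.2.1.0 and TopHat2 2.1.0 are named in the submitters' processing notes, and mm9 and mm10 are listed there as builds, with no roles. The counting program was not given in the sources used here. Of the symbols, 95.4% were found in GENCODE M21 (GRCm38), 90.8% of them at the same position, including 6 of the 8 members, so coordinates are those of mm10. Gene length is the other deposited column used.

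Counts were rounded and scaled by TMM in edgeR 4.0.16 (R 4.3.3; factors 0.999, 1.005 and 0.997 for 12 weeks, 8 weeks and PBS). Genes at 1 CPM or more in at least 1 library were kept, and 1 CPM was added before log2 ratios. The design had provided for normalized values as well, which were not found. Ratios and intervals were tested on simulated counts, which checks the calculation and not the spread between animals. DESeq2 1.42.0 size factors, upper quartile and library totals were alternative scalings. Python 3.11.15, numpy, pandas and scipy were used.

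The members and lists were chosen with earlier results of these data known. All members are named. From each other list the rule took up to 4 genes called against PBS, by size of ratio, and the 2 most abundant, and not every gene it takes is printed. Of the list genes, 1 (Ahsp) was not matched, and Flvcr1 and Flvcr2 were matched by RefSeq's older symbols. Amplified reads are not independent molecules, so intervals cover counting error only. Not every enzyme of the pathway is among the 8 members, and no value is given for the rest, which were not analysed here.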

Additional observations from a re-analysis of the deposited data

Results flagged for a closer look

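Named genes whose log2 ratios to PBS at 12 and 8 weeks had opposite signs, each with a counting interval clear of 0, are given here. The difference between the times was not tested, since each group holds 1 library. Cyp3a11, a drug-metabolising P450, had -0.26 at 12 weeks and 0.38 at 8 weeks. Fth1 had -0.10 at 12 weeks and 0.18 at 8 weeks. Ireb2 had 0.27 at 12 weeks and -0.16 at 8 weeks, and Slc25a37 had -0.21 at 12 weeks and 0.27 at 8 weeks, both named after their values were seen. Hp, haptoglobin, had 0.80 at 12 weeks and -0.04 at 8 weeks. None of the 8 heme synthesis enzymes was among them.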

How the results depend on the processing

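With 1 library per group no result could be checked by leaving out a replicate. No paired analysis was possible because each group holds 1 library. The member ratios were recomputed 224 times over other scalings, pseudocounts, filters, unrounded counts and a 12-week and PBS scaling without the 8-week library (the last 2 chosen after seeing the data). All 224 kept their sign and 223 their side of 2-fold, and no scaling moved one by more than 0.015 on the log2 scale. The exception was Alas2 between 12 and 8 weeks, -0.98 with 5 CPM added, which left 0 members called lower in place of 1. At 1.5-fold, 2 of the 8 members were lower at 8 weeks, where 1162 of the 14585 kept genes were. At 12 weeks 1 member was higher and 3 were lower, where 1354 and 907 of all kept genes were. Between 12 and 8 weeks 2 members were lower, where 690 of all kept genes were. Over all genes, with 0.1 CPM, 5 CPM and a 1.5-fold rule in turn, 1059, 269 and 1547 genes were called higher (605 as reported) and 597, 160 and 1162 lower (307) at 8 weeks. At 12 weeks they were 943, 179 and 1354 higher (454) and 415, 80 and 907 lower (196), and between 12 and 8 weeks 443, 89 and 789 higher (186) and 405, 72 and 690 lower (180). Alas2 counts per 1000 globin counts were 128 at 12 weeks, 290.1 at 8 weeks and 452 in PBS, and per 1000 counts of the other erythroid markers 930.2, 1915 and 3336, with the same order of the libraries. Depth limits Alas2, Uros and Ppox most, at 176 to 496 counts a library.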

Other observations

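Genes that break down, carry or scavenge heme were examined beside the enzymes that make it. Of 14 such genes, 1 was higher and 0 lower at both times (background 4.15% and 2.1% at 8 weeks, 3.11% and 1.34% at 12 weeks). It was Cd163, the macrophage receptor for hemoglobin bound to haptoglobin. Cd163 had 391 counts at 12 weeks and 553 at 8 weeks, against 115 in the PBS control. The list's median log2 ratio to PBS was -0.01 at 8 weeks and -0.02 at 12 weeks. Hpx, hemopexin, the plasma carrier of free heme, had 0.58 at 12 weeks and 0.43 at 8 weeks, and Hp had 0.80 and -0.04. Heme oxygenases were chosen after their values were seen. Hmox1, the inducible form, had 15 counts at 12 weeks and 14 at 8 weeks, against 5 in the PBS control, while the constitutive Hmox2 had 722, 646 and 718 counts.

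Enzymes that carry heme went in both directions. Of 22 genes, 6 were higher and 3 lower at 12 weeks (background 3.11% and 1.34%, median -0.11). At 8 weeks 5 were higher and 2 lower (background 4.15% and 2.1%, median 0.13). Cyp2a5 had 352 CPM at 12 weeks and 503 CPM at 8 weeks, against 84.0 CPM in the PBS control, and Cyp2b9 had 127 and 255 CPM, against 1.03 CPM. Cyp4a10, a fatty acid hydroxylase, had 294 CPM at 12 weeks and 556 CPM at 8 weeks, against 1739 CPM in the PBS control, and Cyp8b1, of bile acid synthesis, had 85.1 and 162 CPM, against 354 CPM. Cyp2e1, the most abundant of the list, had 12835 CPM at 12 weeks and 14397 CPM at 8 weeks, against 17506 CPM in the PBS control. P450 families hold similar sequences, and values of single genes are uncertain.

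The genes nearest to Alas1 in their pair of log2 ratios to PBS, over 3 libraries and 7532 genes, were Apcs, Gamt, Lin7a, Hnmt and Trim24, at distances of 0.015 to 0.078, and 22 genes lay within 0.2. The search took genes with a mean of at least 10 CPM and left out predicted models, clone names and names that start with a digit. Apcs, serum amyloid P, had 1.47 at 8 weeks and 0.92 at 12 weeks. Nearest to Alas2, among 11768 genes with a mean of at least 1 CPM and the same names left out, were Lgr5, Nhlrc3, Phf13, Pde4d and Rph3al at distances of 0.169 to 0.226, and 2 genes lay within 0.2. Lgr5, a receptor of pericentral hepatocytes, had -1.23 at 12 weeks and 0.11 at 8 weeks.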
